A study of Mus musculus with 18 samples.

Results

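The miRNAs described here are the 9 mature products of 5 hairpins that lie in the imprinted loci of Igf2, H19, Mest and Nespas, and they were chosen by name from the 1966 mature miRNAs of the deposited table. All 9 were found in it. They were measured by small RNA sequencing in 18 libraries of mouse tissue, 3 of wildtype adrenal gland (AG), 7 of tumors with an IGF2BP1 transgene (TI) and 8 of tumors with IGF2BP1 and MYCN transgenes (TIM). The AG mice carried no CRE. The TI mice were CRE-positive, 6 homozygous and 1 heterozygous for IGF2BP1, and the TIM mice were CRE-positive and carried IMP1, another name of IGF2BP1, together with MYCN. Each transgene sat in the Rosa26 locus behind a stop cassette that a Dbh-driven iCRE removes in sympathoadrenal cells, the IGF2BP1 transgene had no 3' UTR of its own, and the mice were backcrossed to C57Bl6/N. Of the TI samples 6 were labelled as tumor and 1 as tumor of the adrenal gland, and of the TIM samples 5 as tumor, 2 as tumor of the adrenal gland and 1 as tumor of the spine. Columns of the table give a group and no mouse, so neither the heterozygous TI library nor the tumor sites can be told apart here, and the libraries are lettered in the order of the columns. The labels list them as separate samples and do not say which came from separate animals, so the p-values measure the spread between these samples.

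Imprinted genes are transcribed mainly from the allele of one parent. Igf2, a fetal growth factor, and Mest come from the paternal allele, the long non-coding RNA H19 from the maternal allele, and Nespas is a paternal antisense transcript of the Gnas locus. Igf2 and H19 are abundant in many fetal tissues, the adrenal gland included, and decline after birth, and IGF2BP1 belongs to a family of RNA-binding proteins first known for binding their transcripts. A hairpin inside such a transcript is cut into a 5' and a 3' arm, and the 7 bases of the seed decide most of what a mature miRNA pairs with.

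The sequences of the 9 members, with the seed (bases 2 to 8) in capitals, are shown because each arm is a separate regulator and because no member shares its seed with any other of the 1738 mature mouse miRNAs of the RefSeq table (GRCm38.p6).
mmu-miR-483-5p: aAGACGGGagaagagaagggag
mmu-miR-483-3p: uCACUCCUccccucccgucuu
mmu-miR-675-5p: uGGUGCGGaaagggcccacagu
mmu-miR-675-3p: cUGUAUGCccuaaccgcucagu
mmu-miR-335-5p: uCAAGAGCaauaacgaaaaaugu
mmu-miR-335-3p: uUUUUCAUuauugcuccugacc
mmu-miR-296-5p: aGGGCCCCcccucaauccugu
mmu-miR-296-3p: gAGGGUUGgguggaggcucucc
mmu-miR-298-5p: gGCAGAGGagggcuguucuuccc

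Also no member has the sequence of another mature miRNA in that table, and each has 1 annotated position in it. Mir483 (chr7:142654924-142654996, minus strand, GRCm38) lies in an intron of Igf2 in 12 of 12 overlapping GENCODE vM39 transcripts. Mir675 (chr7:142577064-142577147, minus strand) lies 77.8 kb away within an exon of H19 in 16 of 19 transcripts. Mir335 (chr6:30741299-30741396, plus strand) is intronic in all 21 Mest transcripts that overlap it. Mir296 (chr2:174267047-174267125, minus strand) and Mir298 (chr2:174267504-174267585, minus strand) are 378 bp apart. Both overlap transcripts of Nespas, which the annotation lists as Gnasas1. Of the 2 such transcripts over Mir296, 1 holds it in an intron and 1 partly in an exon, and the 1 over Mir298 holds it in an intron. RefSeq places Gnasas1 at chr2:174281237-174295436, which does not reach either hairpin.

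The AG libraries held 21644743 to 23332704 miRNA reads, the TI libraries 11802837 to 21268124 and the TIM libraries 11641696 to 23435621. Levels are given in CPM, which scales the reads by the library total and by its TMM factor, and this factor ran from 0.700 to 1.85. A count of 0 allows up to 3 reads, equal to 0.139 to 0.140 CPM in AG, 0.160 to 0.272 in TI and 0.101 to 0.209 in TIM, counting error only. One miRNA, miR-148a-3p, took 4.19% to 6.94% of reads in AG, 2.29% to 61.9% in TI and 6.53% to 44.2% in TIM. TI library e stood apart at 2.29%, below every AG library, while the other 6 TI libraries were at 30.1% to 61.9%. Without it 5 members passed in TI against AG, which were all 5 tested in that fit, and 431 of all 721 tested miRNAs passed. The test was limma on log2(CPM + 1), fitted to all 18 libraries and to the 726 miRNAs that reached 1 CPM in 3 or more of them, with p-values adjusted over the 726. Of the 9 members 6 passed this filter. The arms miR-483-3p, miR-675-5p and miR-675-3p did not. In whole tissue, fewer cells of a type and less RNA per cell cannot be told apart.

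The miRNAs of Mest and Nespas were higher in the tumors than in the adrenal gland. Those of Igf2 and H19 were near the limit of detection in nearly every tumor and were scarce in AG as well. In TI against AG, 5 of the 6 tested members were higher (miR-335-5p, miR-335-3p, miR-296-5p, miR-296-3p and miR-298-5p) and 0 lower, each with all 7 TI libraries above all 3 AG libraries. Of all 726 tested miRNAs 55.8% passed an adjusted p of 0.05 in this comparison, 26.4% as higher, and 22% lay above AG with no overlap. In TIM against AG, 4 of the 6 were higher (the same members without miR-335-5p) and 0 lower, and 3 of the 4 did not overlap AG. Here 51.4% of the 726 passed, 25.5% as higher, and 21.1% lay above AG with no overlap. Between TIM and TI none of the 6 passed in limma, against 5.23% of the 726, and miR-335-5p alone had an unadjusted p under 0.05. On the recovered reads the count of members was also 0 with edgeR, which called 0.413% of 726 miRNAs, and 1 with DESeq2, which called 17% of the 724 with an adjusted p, about the same share. The median difference over the 6 tested members was 1.78 in TI and 1.81 in TIM on the log2(CPM + 1) scale, and that over all 726 was -0.01 and 0.18. Both tumor types were compared with the same 3 AG libraries.

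**Figure D1:**
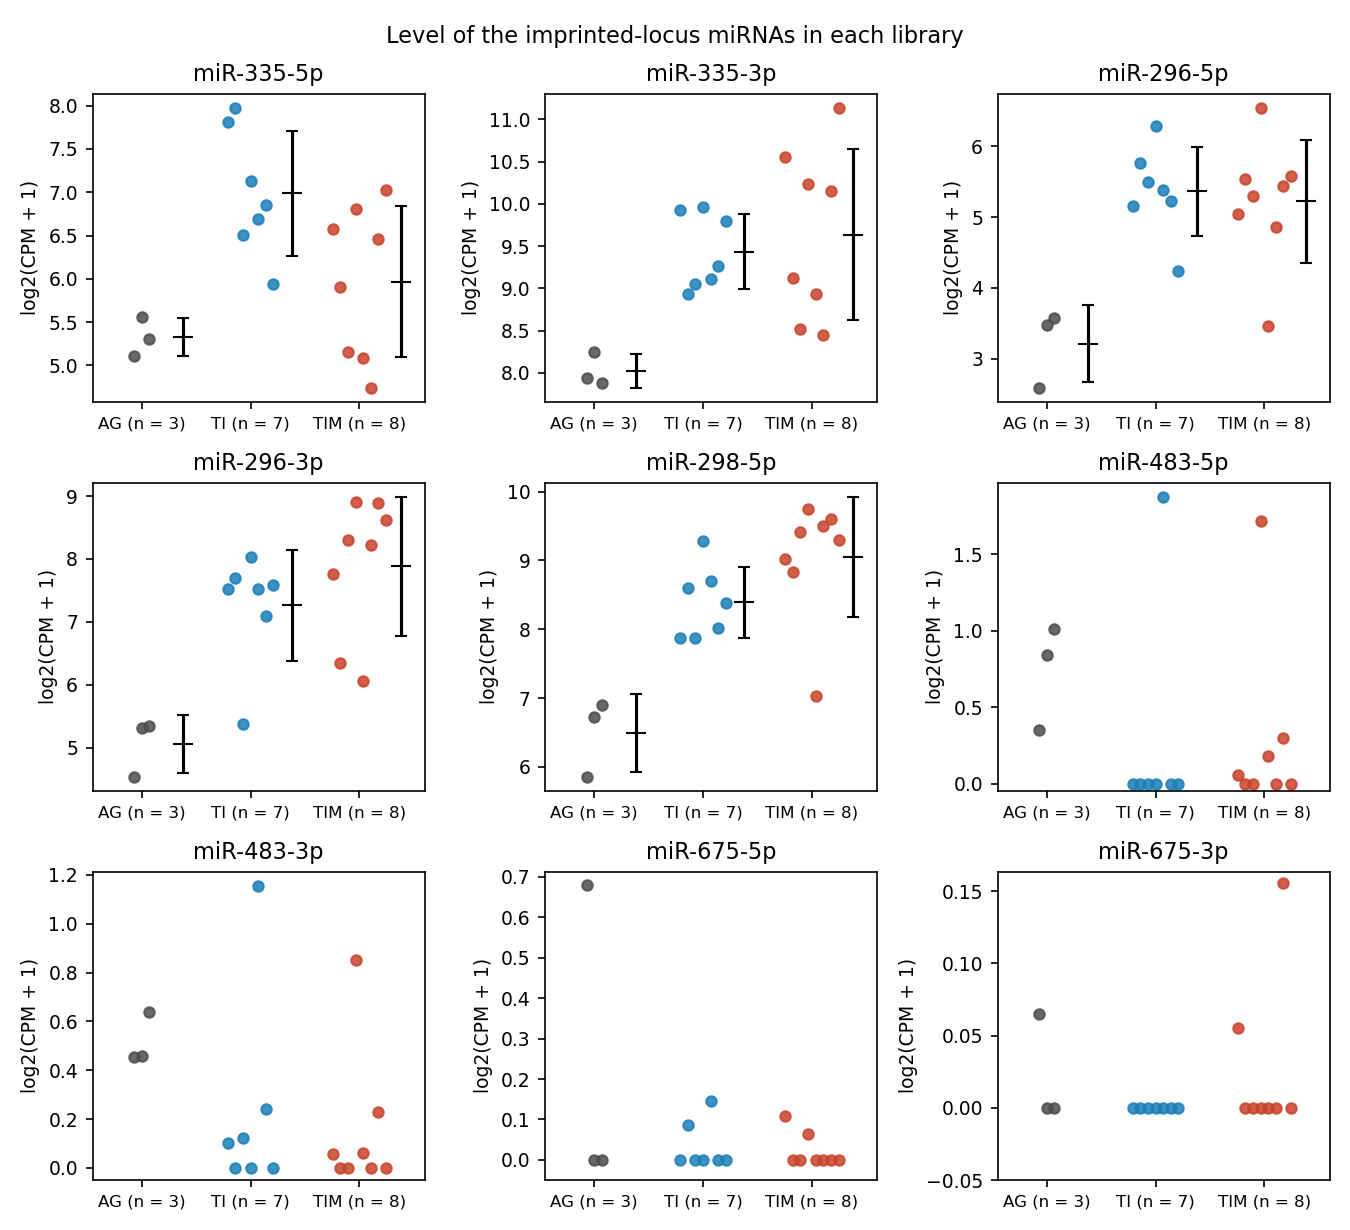
Level of the 9 miRNAs in log2(CPM + 1) in each library of AG (n = 3), TI (n = 7) and TIM (n = 8), with a separate vertical axis per panel; points are libraries and, for the Mest and Nespas miRNAs, bars the mean and SD. All TI points of miR-335, miR-296 and miR-298-5p sit above all AG points. The points of miR-483 and miR-675 are at or near 0 in most tumors and low in AG as well.

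At the Gnas locus, miR-298-5p stood at 56.7, 105 and 118 CPM in the AG libraries. It ran from 233 to 623 CPM in TI (median 331) and from 129 to 862 CPM in TIM (median 656). Every tumor library lay above every AG library. The mean of AG was 93.3 CPM, that of TI 354 CPM, with a log2 difference of 1.90 (standard error 0.48, limma adjusted p = 0.0029), and that of TIM 596 CPM, with 2.56 (standard error 0.47, limma adjusted p = 0.00018). TIM exceeded TI by 0.67 (95% interval -0.08 to 1.42), which did not pass (limma adjusted p = 0.28). With 1 library left out the difference ran from 0.57 to 0.96. The highest value, and a pass (limma adjusted p = 0.033), came without TIM library e, the lowest at 129 CPM. That library was singled out after its value was seen, and 43 of 720 miRNAs passed in that fit.

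Its neighbour miR-296-3p stood at 22.1, 38.5 and 39.7 CPM in AG. In TI it ran from 40.3 to 262 CPM (median 182), and in TIM from 65.4 to 476 CPM (median 306). The lowest TI library lay only just above the highest AG library, and no group of tumors overlapped AG. Its log2 difference was 2.20 in TI (standard error 0.62, limma adjusted p = 0.0064) and 2.83 in TIM (standard error 0.61, limma adjusted p = 0.00092). The 5' arm, miR-296-5p, stood at 4.99, 10.1 and 10.9 CPM in AG, from 17.8 to 77.1 CPM in TI (median 40.9) and from 9.96 to 92.6 CPM in TIM (median 40.4). All TI libraries and 7 of 8 TIM libraries were above AG, and TIM library e fell within the AG range. The log2 differences were 2.15 in TI (limma adjusted p = 0.0018) and 2.01 in TIM (limma adjusted p = 0.0029). TIM against TI gave 0.63 for the 3' arm (95% interval -0.35 to 1.60) and -0.15 for the 5' arm (95% interval -0.94 to 0.65), and neither passed. The other arm of the miR-298 hairpin, miR-298-3p, is no member and was far scarcer, at a mean of 0.511 CPM in AG, 1.85 in TI and 1.51 in TIM.

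At the Mest locus, miR-335-3p stood at 244, 303 and 234 CPM in AG. It ran from 489 to 998 CPM in TI (median 613) and from 348 to 2256 CPM in TIM (median 843). Neither tumor type overlapped AG, and TIM was spread more widely than TI, with an SD of 673 against 223 CPM. The log2 difference was 1.41 in TI (standard error 0.50, limma adjusted p = 0.022) and 1.62 in TIM (standard error 0.49, limma adjusted p = 0.011). In TI this call was lost without AG library a (limma adjusted p = 0.073), without AG library c (limma adjusted p = 0.072) and without the filter on low values (limma adjusted p = 0.057), with values of 1.37, 1.34 and 1.41.

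The 5' arm of the same hairpin passed the test against AG in TI and not in TIM. In AG miR-335-5p stood at 33.6, 46.0 and 38.7 CPM, in TI from 60.6 to 251 CPM (median 114) and in TIM from 25.7 to 129 CPM (median 72.9). All 7 TI libraries were above AG, whereas 5 of 8 TIM libraries were above, 1 within and 2 below the AG range. It rose by 1.66 on the log2 scale in TI (standard error 0.51, limma adjusted p = 0.010). In TIM the difference was 0.64 (standard error 0.50, 95% interval -0.40 to 1.69) and did not pass (limma adjusted p = 0.29). Between TIM and TI it was -1.02 (standard error 0.38, 95% interval -1.82 to -0.22), with an unadjusted p of 0.015 in limma and an adjusted p of 0.10. DESeq2 on the recovered reads gave -1.05 with an adjusted p of 0.045. The 3' arm differed between TIM and TI by 0.20 (95% interval -0.58 to 0.98).

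**Figure D2:**
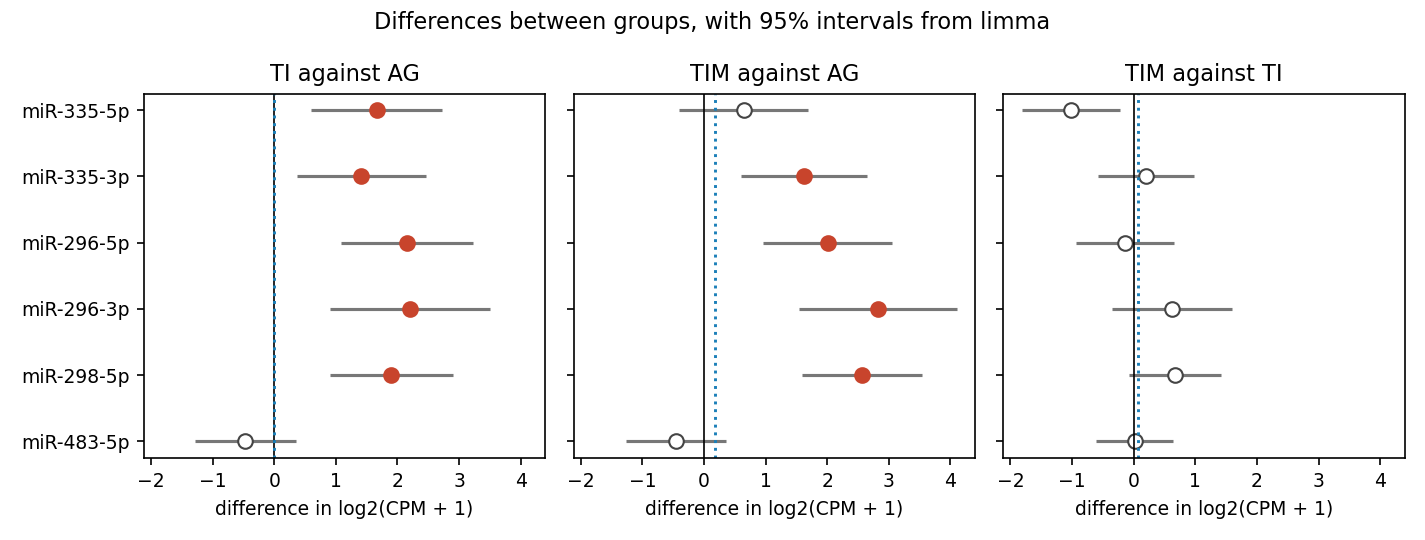
Differences in log2(CPM + 1) of the 6 tested members with 95% intervals from limma in each comparison; filled red points passed an adjusted p of 0.05, open points did not, and the dotted line is the median of all 726 tested miRNAs. The 5 miRNAs of Mest and Nespas lie between 1.41 and 2.20 in TI, and miR-335-5p is the only one of them not filled in TIM against AG.

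Because both arms come from 1 hairpin in 1 library, their ratio does not depend on how the library was scaled. For miR-335 the 3' arm made up 85.8% to 87.9% of the reads in AG (median 86.8%), 66.1% to 93.6% in TI (median 84.4%) and 90.4% to 94.6% in TIM (median 93.0%). All 8 TIM libraries were above all 3 AG libraries, and 12.8% of the 187 hairpins tested shifted towards the 3' arm in TIM with no such overlap. Expressed as reads of the 3' arm per read of the 5' arm, the median was 6.59 in AG, 5.40 in TI and 13.3 in TIM. Of the TI libraries, g reached the TIM range at 14.6 and b had the lowest ratio, 1.95. For AG library c, with 836 reads of the 5' arm and 5053 of the 3' arm, the Wilson 95% interval of the share was 84.9% to 86.7%, which covers counting error only.

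Written as log2 of 5' over 3' reads, the miR-335 ratio averaged -2.72 ± 0.13 (SD, n = 3) over the AG libraries. The TI libraries averaged -2.46 ± 0.87 (SD, n = 7) and the TIM libraries -3.69 ± 0.31 (SD, n = 8). Between TIM and TI it differed by -1.24 (exact permutation test, two-sided, p = 0.0025). After adjustment over the 187 hairpins it was 0.15, so the difference did not pass, and 17.1% of the hairpins had an unadjusted p under 0.05. With all libraries in, no other hairpin had a more negative difference in this comparison, but miR-195a was almost equal at -1.23. Other hairpins changed more in the opposite direction, up to 1.69 for miR-350. The difference of TIM from AG, -0.97, had the smallest p that the exact permutation test allows, 0.012, which was 0.060 after adjustment, and 32.6% of the hairpins had an unadjusted p under 0.05. An exact permutation p computed on the absolute difference was 0.037 after adjustment. That p does not double the tail, so its smallest possible value is lower. The share of all hairpins that passed with it is not given here, so it is not read as a result for miR-335. TI and AG differed by 0.27 (exact permutation test, p = 0.53, where 27.8% of hairpins had an unadjusted p under 0.05). A limma fit of the arm ratios, added after seeing the data, gave adjusted p-values of 0.077 for TIM against TI and 0.11 for TIM against AG.

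**Figure D3:**
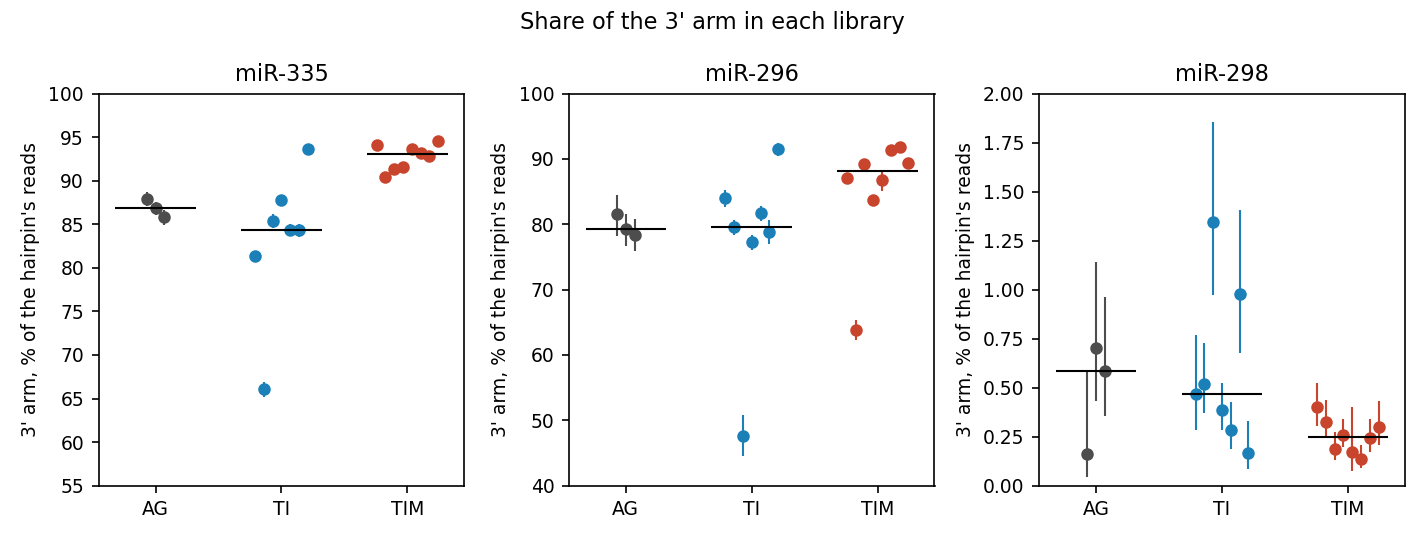
Share of the 3' arm in the reads of the miR-335, miR-296 and miR-298 hairpins in each library, with Wilson 95% intervals (counting error only) and the group median as a line; the vertical axes differ and do not all start at 0. The TIM libraries of miR-335 sit between 90.4% and 94.6%, above the AG libraries at 85.8% to 87.9%.

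The other hairpins moved less clearly. The 3' arm of miR-296 made up 78.4% to 81.6% of its reads in AG, 47.7% to 91.5% in TI (median 79.5%) and 63.8% to 91.7% in TIM (median 88.1%). In TIM 7 of 8 libraries were above AG and 1, library b, below. The log2 ratio differed by -0.73 between TIM and AG (exact permutation test, p = 0.22) and by -0.78 between TIM and TI (exact permutation test, p = 0.14). The miR-298 hairpin gave almost only its 5' arm, with a 3' share of 0.163% to 0.704% in AG, 0.167% to 1.34% in TI and 0.135% to 0.400% in TIM. Its log2 ratio was higher by 1.01 in TIM than in TI (exact permutation test, p = 0.027, adjusted p = 0.24 over 187 hairpins), which rests on 5 to 53 reads of the 3' arm per TIM library. Over all 187 hairpins the median change was 0.05 between TIM and TI, and 0 passed the exact permutation test after adjustment in any comparison. Against AG the smallest p this test allows was 0.017 in TI and 0.012 in TIM. That leaves little room to pass after adjustment, so no conclusion is drawn from the 0 against AG. At an unadjusted p under 0.05 there were 52 in TI against AG, 61 in TIM against AG and 32 in TIM against TI. The limma fit called 45, 33 and 0 hairpins in these comparisons, none of them a member hairpin.

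**Figure D4:**
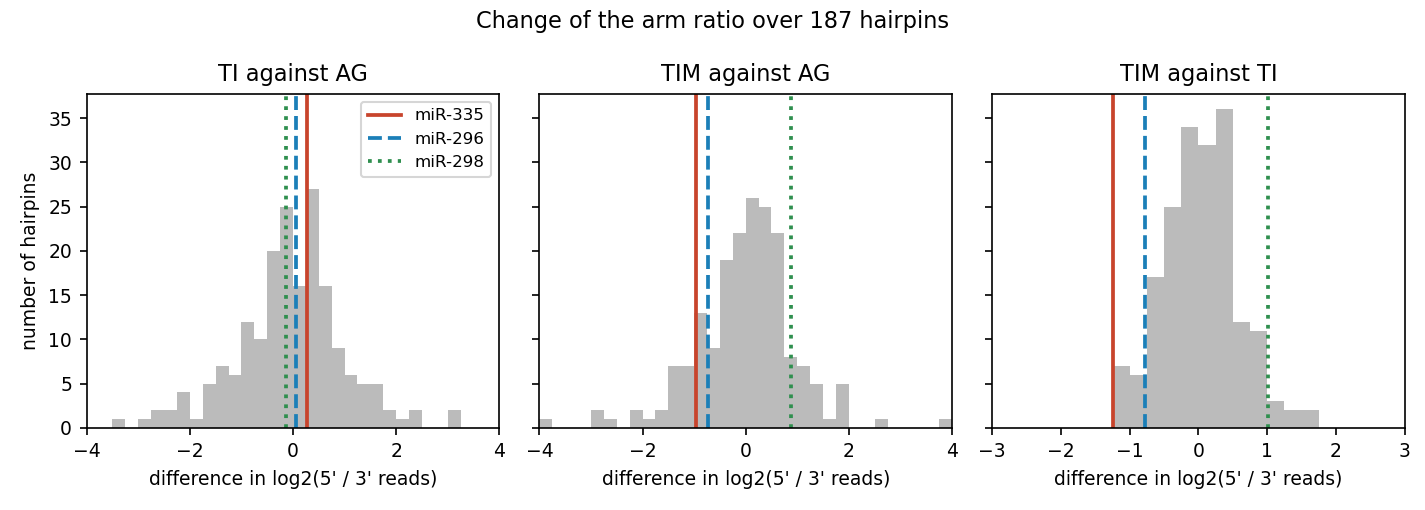
Histograms of the difference in mean log2(5'/3' reads) over 187 hairpins with a median of at least 10 reads in each arm, for the 3 comparisons, with miR-335, miR-296 and miR-298 as vertical lines. In TIM against TI the miR-335 line, at -1.24, stands at the lower end of the distribution.

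The Igf2 intronic miR-483 was scarce everywhere. In AG miR-483-5p had 6, 17 and 22 reads, or 0.277, 0.793 and 1.02 CPM. In TI 6 of 7 libraries had 0 reads and library e had 50 reads (2.67 CPM). In TIM 4 of 8 libraries had 0 reads, 3 had 1 to 4 reads and library d had 51 reads (2.28 CPM). Thus 6 TI and 7 TIM libraries lay below all AG libraries, and 1 of each lay above all of them. The 3' arm, miR-483-3p, had 8, 8 and 12 reads in AG and followed the same libraries, with 23 reads in TI library e, 18 in TIM library d and at most 3 in any other tumor.

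With these libraries included, miR-483-5p did not differ past the threshold, at -0.47 in TI (standard error 0.39, limma adjusted p = 0.33) and -0.45 in TIM (standard error 0.39, limma adjusted p = 0.34). The tools disagreed on it. DESeq2 on the recovered reads called it lower, by -4.92 in TI (adjusted p = 0.0026) and -3.63 in TIM (adjusted p = 0.015), in comparisons where it called 60.4% and 58.4% of 724 miRNAs, whereas edgeR gave -0.86 and -0.998 with adjusted p-values of 0.69 and 0.62. Without TI library e and TIM library d it no longer passed the filter on low values. The other 5 tested members then passed in TI, as did 432 of all 717 tested miRNAs. In TIM the 4 members that had passed did so again, with 355 of the 717 miRNAs.

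Both libraries were also high in another miRNA. Over the 15 tumor libraries, the miRNA most like miR-483-5p among 395 candidates was miR-217-5p (Pearson's r = 0.92, Spearman's rho = 0.65), followed by miR-92b-3p (0.81) and miR-375-3p (0.61). The points share their libraries and 2 of them carry the first relation, so these are descriptions. In AG miR-217-5p stood at a mean of 48.3 CPM (SD 10.1, n = 3), in TI library e at 57.7 CPM and in TIM library d at 129 CPM, against at most 7.97 CPM in the other tumors. Its genomic neighbour miR-216b-5p, chosen after its values were seen, stood at 9.99 CPM in TI library e and 14.3 CPM in TIM library d, with 5.92 to 9.12 CPM in AG and at most 1.24 CPM in the other tumors. Both are best known from the exocrine pancreas. The likewise later chosen miR-802-5p separated the libraries, with 5.46 CPM in TIM library d and 0 in TI library e, against 0.139 to 0.280 CPM in AG.

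The summed marker lists did not single out both libraries. By itself the neuroendocrine marker miR-375-3p was the highest of TI in library e (38518 CPM) and of TIM in library d (18143 CPM). The next highest stood at 6425 CPM in TI and 17424 CPM in TIM. The summed neuroendocrine markers were at 271810 CPM in TI library e, the highest of TI, and at 129732 CPM in TIM library d, within a TIM range of 34541 to 244238 CPM. TI library e was also the highest of TI in the summed endothelial (6736 CPM), smooth muscle (171131 CPM) and erythroid (4354 CPM) markers and the lowest in the neuronal (3799 CPM) and epithelial (15.6 CPM) markers. TIM library d was the highest of TIM in the epithelial markers (359 CPM) and the lowest in the liver marker miR-122-5p (4.25 CPM). Whether these are the tumors labelled as adrenal gland cannot be told apart, and the part of other tissue in the miR-483 values was not tested.

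**Figure D5:**
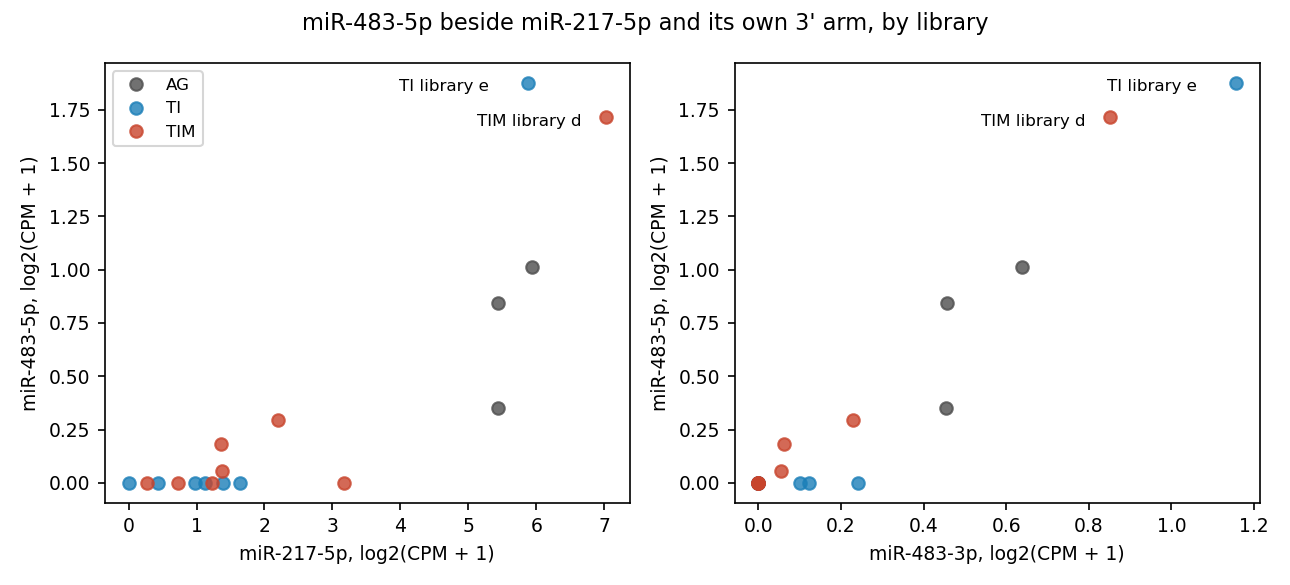
Level of miR-483-5p against miR-217-5p (left) and against its own 3' arm miR-483-3p (right) in log2(CPM + 1), 1 point per library. TI library e and TIM library d, at 2.67 and 2.28 CPM of miR-483-5p, are above the AG libraries, and the other tumors lie at the bottom left.

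The H19-derived miR-675 was barely detected. AG library a had 13 reads of miR-675-5p (0.601 CPM) and the other 2 AG libraries had 0. In the tumors there were 3 reads over the 7 TI libraries and 3 over the 8 TIM libraries. For miR-675-3p there was 1 read in AG, 0 in TI and 3 in TIM. No difference between groups was detectable at this depth, and AG rests on 1 library. The same AG library had 263 CPM of miR-202-5p, a miRNA known from gonadal tissue that was chosen after its values were seen, against 24.3 and 7.91 CPM in the other 2. The part of that in the miR-675 value was not tested. The tumor miRNAs most like miR-675-5p were miR-320-3p, miR-30a-5p and miR-217-5p (Pearson's r = 0.64, 0.61 and 0.60), which on 6 reads in all is no finding.

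Across libraries, the hairpins of a locus were compared by the summed CPM of both arms on the log2 scale, in 8 relations. The Nespas pair miR-296 and miR-298 varied together in TIM (n = 8, Pearson's r = 0.91, exact permutation p = 0.00084, adjusted p = 0.0067 over the 8 relations). Within TIM single arms also reached 0.92 for miR-296-3p with miR-93-5p and 0.93 for miR-335-3p with miR-542-3p. Those partners were picked as the most alike of 395 candidates, so nothing about a shared locus is concluded from them. The part of the shared locus in the relation was not tested. Spearman's rho was 0.90 (exact permutation p = 0.0046, adjusted p = 0.037). Without the 2 libraries farthest from the median of miR-296, r was 0.83 (exact permutation p = 0.047) and no longer passed after adjustment (exact permutation adjusted p = 0.20). In TI r was 0.75 (n = 7, exact permutation p = 0.017, adjusted p = 0.067) and rho 0.75 (exact permutation p = 0.066). Both levels share the scaling of their library. Without the TMM factor r was 0.93 in TIM and 0.78 in TI. Both levels were then still divided by the same library total, so this does not remove the shared scaling.

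None of the other 6 relations passed. For Igf2 and H19, miR-483 and miR-675 gave r = 0.82 in TI (exact permutation p = 0.29, rho = 0.28, exact permutation p = 0.62), which turned to -0.39 without TI library e. In TIM they gave r = 0.24 (exact permutation p = 0.52) and rho = 0.67 (exact permutation p = 0.089). For miR-335 with miR-483, r was -0.44 in TI and 0.29 in TIM (exact permutation p = 0.31 and 0.56). For miR-335 with miR-675, r was -0.49 in TI and 0.52 in TIM (exact permutation p = 0.29 and 0.23).

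By the same measure of likeness over the 15 tumors, miR-335-3p was nearest to miR-497a-5p (r = 0.80), miR-542-3p (0.71) and miR-450b-5p (0.70). For miR-296-3p the nearest were miR-93-5p (0.79), miR-18a-5p (0.78) and miR-17-3p (0.77). For miR-298-5p they were miR-410-5p (0.71), miR-17-5p (0.66) and miR-17-3p (0.66). These r pool TI and TIM. For miR-335-3p with miR-542-3p, r was 0.53 within TI and 0.93 within TIM, and for miR-298-5p with miR-17-5p it was 0.23 and 0.87.

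Other imprinted clusters gave a scale for the members. Of 99 tested miRNAs of the Dlk1-Dio3 cluster, which is expressed from the maternal allele, 77 exceeded AG in TI and 72 did in TIM, with 0 and 1 lower (limma adjusted p under 0.05), and their median log2 differences were 1.82 and 1.59. None of the 99 passed between TIM and TI. Of 32 tested miRNAs of the paternally expressed Sfmbt2 cluster, 13 were lower in TI, 4 were higher in TIM, and 23 were higher in TIM than in TI. The markers of other tissues moved as well. The summed level of 2 endothelial markers fell from 38529 to 46092 CPM in AG to 1704 to 8943 CPM in the tumors, and both passed as lower in each tumor type. The 3 neuronal markers all passed as higher, from 367 to 592 CPM in AG to 3799 to 18944 CPM in the tumors, and no marker of any list was at 0 in a whole group. Of 3 stromal markers 3 were lower in TI and 2 in TIM, of 4 leukocyte markers 3 and 4, of 2 smooth muscle markers 1 and 2, and the liver marker miR-122-5p in both. None of 3 neuroendocrine, 3 erythroid, 5 epithelial and 3 striated muscle markers passed. The part of these cell types in the members' differences from AG was not tested.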

How the data were processed

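Small RNA of 3 AG, 7 TI and 8 TIM samples was sequenced. The submitters' processing notes name cutadapt 2.8, Bowtie2 2.3.5.1, featureCounts 2.0.0, edgeR 3.40 and mm10. The deposited signal is CPM scaled by the authors with edgeR's TMM factors. The authors also deposited the log2 fold changes, p-values and FDR of their own comparisons, which were not used. Whole reads were recovered from the steps of the low values (100% whole, tolerance 0.001 reads) and used for arm ratios (0.5 reads added), edgeR 4.0.16 and DESeq2 1.42.0. The main test was limma 3.58.1 (R 4.3.3, lmFit, eBayes with trend) across all miRNAs with Benjamini-Hochberg adjustment. Exact permutation tests doubled the smaller tail and ran in Python 3.11.15 with numpy 2.4.6. The limma, edgeR and DESeq2 fits were also run on simulated data, with outcomes not given here. No such check was recorded for the exact permutation tests.

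The members and lists were chosen with earlier results of these data known. All 9 members are named. For the more abundant arm of each hairpin, the 3 most correlated tested miRNAs averaging 10 CPM or more are named. Arm ratios were adjusted over all 187 hairpins within each comparison in place of the planned adjustment over the member hairpins. Hairpin and mature coordinates are RefSeq GRCm38.p6, the build of mm10. Exon and intron status comes from GENCODE vM39 on GRCm39. The number of reads sets the precision. Reads carry no molecular identifiers. Alternatives were pseudocounts of 0.1 and 5, other filters, other scalings, 2 groups only, the count tools and leaving out each library.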

Additional observations from a re-analysis of the deposited data

Results flagged for a closer look

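Dixon's ratio, the gap of the most extreme library to its neighbour over the whole range, was taken in 23 groups of values. In 8 a library lay beyond the 95% critical value, where chance gives about 1 in 20 for normally distributed values. The values of miR-483 and miR-675 in the tumors are mostly 0 or a few reads, so that rate does not apply to them. Of the 8 flags, 4 fell on miR-483. TI library e was high in miR-483-5p (ratio 1, since the other 6 were at 0) and in miR-483-3p (0.792), and TIM library d was high in miR-483-5p (0.827) and in miR-483-3p (0.733). The 2 arms come from 1 hairpin and are not separate evidence. Their values and the level of miR-217-5p beside them are given in the report.

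TIM library g was high in miR-675-3p (ratio 0.644), which is 2 reads. In TI library c miR-296-3p was low at 40.3 CPM (ratio 0.646). TIM library e was low in miR-298-5p at 129 CPM (ratio 0.659). TIM library b stood apart in the arm ratio of miR-296 (ratio 0.582), with 63.8% of reads on the 3' arm.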

How the results depend on the processing

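No paired analysis was possible because the libraries carry no mouse or replicate identity. The number of members past the threshold against AG was 4 to 6 in TI and 4 to 5 in TIM over all alternatives, and 4 to 5 and 4 when 1 library was left out. Of all tested miRNAs, whose number changed with the filter, 294 to 437 passed in TI and 227 to 423 in TIM over all alternatives. The added member with DESeq2 was miR-483-5p, called lower. Between TIM and TI the count of 0 became 1 with CPM without the TMM factor (miR-298-5p, 1.22), 1 with DESeq2 (miR-335-5p) and 0 to 1 when 1 library was left out. In these settings 155 of 730 miRNAs passed without the TMM factor, 123 of 724 with DESeq2 and 24 to 68 with 1 library left out. The arm ratio of miR-335 in TIM against AG (-0.97) passed only with the absolute-difference p, which does not double the tail and can go lower. It stood between -1.04 and -0.90 with 1 library left out.

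The 5 Mest and Nespas miRNAs kept a higher mean than AG in both tumor types in every alternative, which concerns the direction only. In TIM miR-335-5p passed in none of its 22 alternatives (0.49 to 1.23), and in TI miR-335-3p lost its call in 3. The share of all miRNAs that kept their direction is not given here. Scaling moved the median of all tested miRNAs by 0.42 in TIM against TI without the TMM factor, where 89.0% of 155 calls were higher in place of 65.8% of 38. Leaving miR-148a-3p out of the totals moved it by 0.32 in TI and 0.35 in TIM, and 59.7% and 66.4% of calls were then higher in place of 47.4% and 49.6%.

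Reversals were limited to values that had not passed. Between TIM and TI miR-296-5p (-0.15) was 0.40 without the TMM factor and -0.33 to 0.11 with 1 library left out, miR-335-3p -0.012 to 0.37, and miR-483-5p -0.032 to 0.053, with -0.0062 at a pseudocount of 5 and -0.14 in edgeR. With 1 library left out the TI against AG arm ratios were -0.29 to 0.31 for miR-296 and -0.49 to 0.43 for miR-298. The relation of miR-483 and miR-675 in TI was -0.39 to 0.995, and -0.41 without the 2 farthest libraries. The causes were not tested. The 38 calls between TIM and TI became 3 with edgeR and 123 with DESeq2, and the 373 between TIM and AG became 227 without AG library a. With 3 AG libraries the exact permutation test with the doubled tail cannot go below 0.017 in TI and 0.012 in TIM.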
